A study of Mus musculus with 6 samples.

Results

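A total of 10 of the 21367 genes in the expression table were described here, namely 7 matrix metalloproteinases (MMPs) and 3 tissue inhibitors of metalloproteinases (TIMPs). They were taken by gene symbol, and the family was chosen from earlier results of the same comparison, so the differences between groups given below for these genes are a description. The kidneys came from 7-week-old mice on a C57BL/6 background after renal ischemia-reperfusion injury (IRI). A total of 3 libraries came from Ptpn6+/mev mice, heterozygous for viable motheaten, a splice-site allele of Ptpn6, and 3 came from wild-type littermates. The labels call the first genotype SHP1 knockdown, after the tyrosine phosphatase SHP-1 that Ptpn6 encodes, and number the mice of each group as separate animals. Every mouse lost the right kidney, had the left renal pedicle clamped for 34 min under pentobarbital with heparin, and was killed after 24 h of reperfusion, when the left kidney was taken for RNA. The allele is inherited and is carried by every cell of the mouse, and no uninjured kidney was analysed here, so the comparison is between genotypes after injury.

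MMPs are zinc-dependent endopeptidases that are made as inactive proenzymes and cleave collagens, gelatin, laminins, fibronectin and many cell-surface proteins. TIMPs bind the active site of MMPs and block it, and TIMP-2 also takes part in the activation of pro-MMP-2 on the cell surface by the membrane-bound enzyme MMP-14. In the injured kidney these genes are known for their part in basement membrane turnover, leukocyte entry and later scarring, and MMP-7 is known as a product of damaged tubular epithelium. Several MMP genes stand side by side on mouse chromosome 9, and many of their promoters are known to carry an AP-1 element, bound by Fos and Jun proteins, just upstream of a TATA box.

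Promoter sequences are shown first for the 4 members that lie together on chromosome 9, because this arrangement was shared by all 4. RefSeq windows on GRCm38.p6, from 250 bases before to 50 bases after the start of transcription, were matched for 8 of the 10 members, all but Mmp2 and Mmp9. The letters searched were TGAGTCA and its reverse complement TGACTCA for AP-1, and TATAAA and its reverse complement TTTATA for the TATA box, so both strands were covered, and the AP-1 and TATA letters did not overlap in the windows shown. The 100 bases before the start, 5′ to 3′ on the plus strand, are given with these letters in capitals. They lie at chr9:7445722-7445821 for Mmp3, chr9:7502242-7502341 for Mmp10, chr9:7691990-7692089 for Mmp7 (the first of its 2 windows) and chr9:7272414-7272513 for Mmp13.
Mmp3: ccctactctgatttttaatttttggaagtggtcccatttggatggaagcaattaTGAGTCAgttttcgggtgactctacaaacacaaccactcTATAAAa
Mmp10: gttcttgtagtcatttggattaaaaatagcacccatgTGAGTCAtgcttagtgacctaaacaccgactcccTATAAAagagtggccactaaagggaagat
Mmp7: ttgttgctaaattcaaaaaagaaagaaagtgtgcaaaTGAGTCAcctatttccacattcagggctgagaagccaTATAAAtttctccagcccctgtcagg
Mmp13: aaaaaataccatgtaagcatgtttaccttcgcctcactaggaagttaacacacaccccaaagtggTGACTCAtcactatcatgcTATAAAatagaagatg

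The first AP-1 base stood 46 bases upstream of the start in Mmp3, 63 bases upstream in Mmp10, 63 in Mmp7 and 35 in Mmp13, in each case before a TATAAA. In Mmp7 another TATAAA lay 123 bases upstream, outside the printed stretch, and the second window of Mmp7 held neither set of letters. Neither set of letters was found in the windows of Mmp14, Timp1, Timp2 or Timp3. Among all 32851 promoter windows of this length, 5.2% held the AP-1 letters, 13.6% held the TATA letters and 0.941% held both. Among the other genes of the family with a window, AP-1 letters were found in 3 of 15, which were Mmp1a, Mmp1b and Mmp12, and TATA letters in 6 of 15. These matches describe the letters only, and the fitted differences of these 4 genes between groups, given below, had both signs.

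The libraries held 10271590 to 12361745 estimated counts each. Replicates of a group differed by more than counting error, at a chi-square of 6.27 to 43.3 for each degree of freedom. Wild-type replicate 2 stood apart from the other 5 libraries. Its normalization factor was 0.929 against 0.994 to 1.03 in the others, and it was the lowest library for 42.8% and the highest for 17.3% of the 13036 genes tested. It was the lowest of 6 for 7 of the 10 members and the highest for 2, Mmp7 and Timp3. In the same library the summed level of 7 fibroblast markers was 69.35 FPKM (fragments per kilobase of transcript, scaled to library size), against 210.9 to 243.9 in the other libraries. The sum of 6 endothelial markers was 53.22 FPKM against 126.6 to 136.6, and that of 8 macrophage markers was 107.6 FPKM against 165.1 to 270.3. The collecting duct water channel gene Aqp2 and the distal tubule gene Calb1 were higher there. Aqp2 was at 430.77 FPKM against 121.61 to 227.54, and Calb1 was at 45.59 FPKM against 14.08 to 27.97. The sum of the 5 distal nephron markers, 2852 FPKM, was within the range of the others, 2002 to 2915 FPKM. This place within the range was read in FPKM only. In estimated counts Umod, the most abundant of the 5, was highest in this library, at 47351 against 29307 to 45803 in the others. None of these marker genes was at 0 in every library, and all 6 proximal tubule and all 5 distal nephron markers were detected, as the labelled tissue requires. In bulk kidney RNA, fewer cells of a type and less RNA per cell cannot be told apart. The targeted gene itself, Ptpn6, measured 11.85, 14.66 and 13.61 FPKM in Ptpn6+/mev kidneys and 17.47, 10.87 and 15.44 FPKM in wild-type kidneys, an overlap between groups, and a value per gene that pools both alleles does not check the genotype labels.

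**Figure D1:**
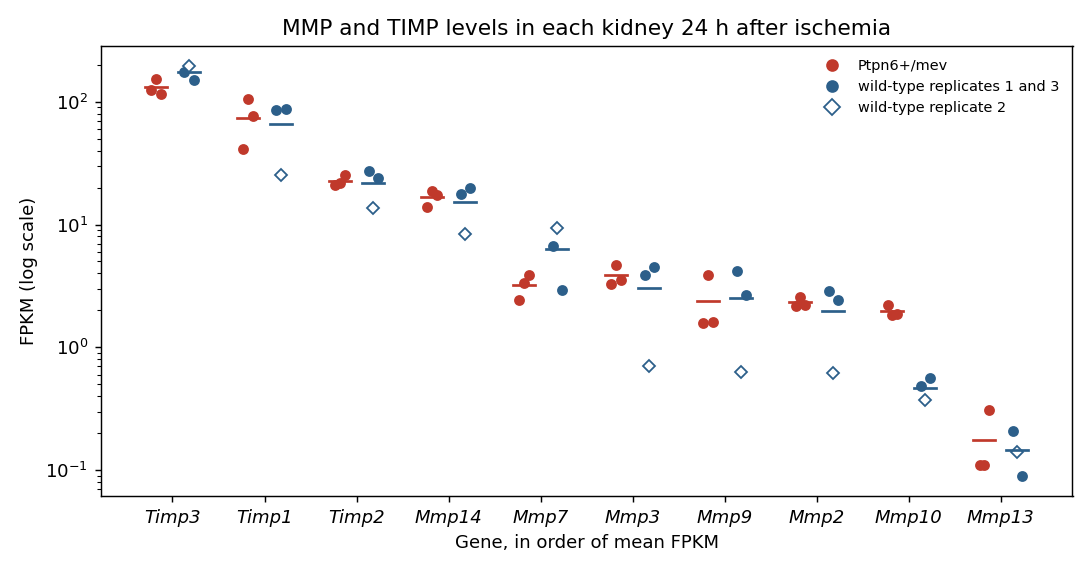
Level of each member in each library in FPKM on a log axis, with genes ordered by mean level, points for single libraries and a bar at each group mean. The members spread from Timp3 at a mean of 152.1 FPKM to Mmp13 at 0.162 FPKM, and wild-type replicate 2 (open diamonds) is the lowest point for 7 genes.

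Levels were compared between genes in FPKM, which is per transcript length. Timp3 was the most abundant member at a mean of 152.1 FPKM over the 6 libraries, followed by Timp1 at 70.1 FPKM and Timp2 at 22.2 FPKM. Mmp14 was the most abundant protease at 15.97 FPKM, and Mmp7 came next at 4.79 FPKM. Mmp3 at 3.45, Mmp9 at 2.44, Mmp2 at 2.15 and Mmp10 at 1.22 FPKM formed the low end, with Mmp13 at 0.162 FPKM. Timp3 exceeded Timp1, Timp1 exceeded Timp2, Timp2 exceeded Mmp14 in 6, 6 and 6 of 6 libraries, respectively, although only the ranges of Timp3 and Timp1 were apart across libraries. Mmp14 was above Mmp7 in 5 of 6 libraries, the exception being wild-type replicate 2. Mmp7 and Mmp3 could not be ordered, with Mmp7 above Mmp3 in 3 of 6. Mmp3 was above Mmp9 in 5, Mmp9 above Mmp2 in 4 and Mmp2 above Mmp10 in 5 of 6 libraries, and the ranges of these neighbours overlapped. Mmp10 was above Mmp13 in every library, with ranges that did not overlap.

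Among the 10 members, the inhibitors outweighed the proteases in transcript level in every kidney. The ratio of summed MMP to summed TIMP FPKM was 0.1375, 0.1256 and 0.1429 in Ptpn6+/mev libraries and 0.1253, 0.0872 and 0.1255 in wild-type libraries. Group means were 0.135 ± 0.00885 (SD, n = 3) and 0.113 ± 0.0221 (SD, n = 3), and the lowest Ptpn6+/mev value lay just above the highest wild-type value. Mmp14 made up 41.3% to 59.9% of the MMP sum, and Timp3 made up 53.0% to 83.3% of the TIMP sum, the highest share being in wild-type replicate 2. Without Timp3 the order of the groups turned, with a mean ratio of 0.332 in Ptpn6+/mev and 0.379 in wild-type kidneys. The ratio was given no test and leaves out the MMPs that are not members. The other 18 genes of the family, nearly all MMPs, summed to 18.24 to 20.13 FPKM in Ptpn6+/mev libraries. In wild-type libraries they summed to 8.38 to 20.29 FPKM. The narrow gap between the groups therefore holds for the members only, and not for all MMPs and TIMPs.

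In the comparison of Ptpn6+/mev with wild-type kidneys, no member passed the threshold of a false discovery rate (FDR) below 0.05 in edgeR's quasi-likelihood test, among the 9 members with enough counts to be tested. Across all genes 18 passed, or 0.138%. At an unadjusted p under 0.05 the test listed 3 of 9 members, Mmp10, Mmp7 and Timp3, where 12.2% of all genes tested were listed. Other tools called 1 member each, which was Mmp10 in all cases, namely edgeR's exact test, DESeq2 and limma on log2(FPKM + 1) or log2(FPKM + 0.1). The exact test called 2.99% of all genes, DESeq2 2.98%, and limma 0.169% and 0.146%, respectively. When wild-type replicate 2 was left out, quasi-likelihood testing also called Mmp10 alone among the members, against 1.77% of all genes. In FPKM, the groups did not overlap for 1 of the 10 members, Mmp10, with higher values in Ptpn6+/mev kidneys, whereas 14.0% of all genes tested lay apart in that direction. No member lay apart in the lower direction in FPKM, against 6.38% of all genes tested.

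**Figure D2:**
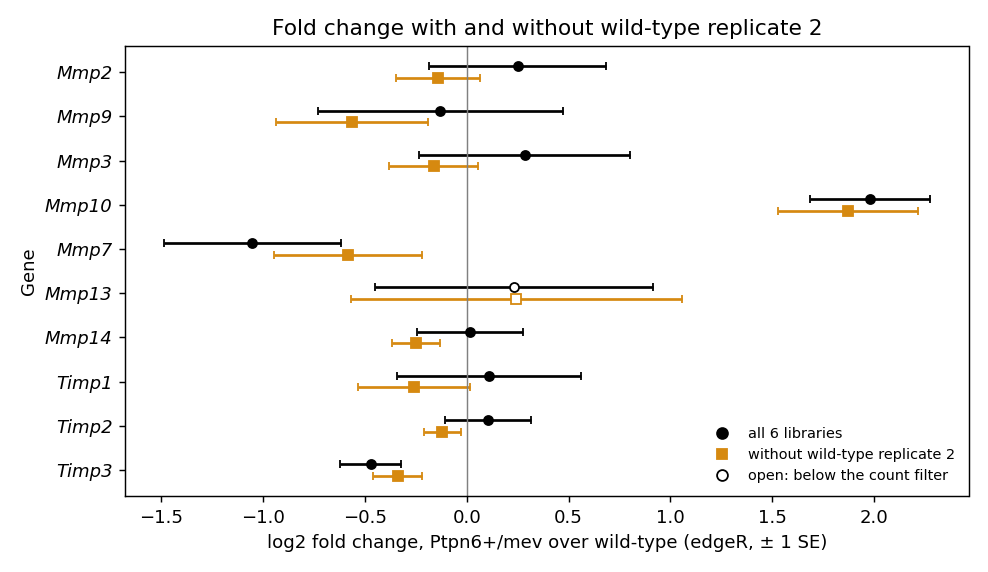
Log2 fold change of each member, Ptpn6+/mev over wild-type, from edgeR with all 6 libraries (black) and without wild-type replicate 2 (orange), with bars of 1 standard error and open symbols for Mmp13, which was below the count filter. Mmp10 stays at 1.98 and 1.87, while Mmp2, Mmp3, Mmp14, Timp1 and Timp2 cross 0 when that library is left out.

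The gelatinases cleave denatured collagen and basement membrane type IV collagen. Mmp2 (ENSMUSG00000031740, chr8:92827291-92853420 on GRCm38, plus strand), the constitutive gelatinase of mesenchymal cells, measured 2.17, 2.59 and 2.23 FPKM in Ptpn6+/mev kidneys and 2.85, 0.62 and 2.44 FPKM in wild-type kidneys. The Ptpn6+/mev libraries lay close together inside the wild-type range, which was widened by replicate 2. Its log2 fold change was 0.25 (SE 0.44, edgeR adjusted p = 0.884) and became -0.14 without that library. Mmp9 (ENSMUSG00000017737, chr2:164940780-164955850, plus strand), the inducible gelatinase stored by neutrophils, measured 1.59, 3.91 and 1.60 FPKM against 4.19, 0.63 and 2.69 FPKM. Both groups were scattered, with coefficients of variation of 56.5% and 71.4%, and they overlapped fully. The log2 fold change of Mmp9 was -0.13 (SE 0.60, edgeR adjusted p = 0.963), and it was -0.56 without wild-type replicate 2. The summed level of 9 neutrophil markers ranged from 25.05 to 58.49 FPKM in Ptpn6+/mev and from 26.37 to 45.41 FPKM in wild-type libraries. Their part in the Mmp9 values was not tested.

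The stromelysins cleave proteoglycans, laminin and fibronectin and activate other proMMPs. Mmp10 (stromelysin-2, ENSMUSG00000047562, chr9:7502352-7510240, plus strand) measured 2.20, 1.84 and 1.88 FPKM in Ptpn6+/mev kidneys and 0.48, 0.37 and 0.56 FPKM in wild-type kidneys. Every Ptpn6+/mev kidney was above every wild-type kidney, with or without wild-type replicate 2. These levels rested on 39, 33 and 35 counts against 9, 7 and 12 counts, so Mmp10 passed the count filter through the Ptpn6+/mev group only. The fitted difference was 3.95-fold, or 1.98 on the log2 scale (SE 0.30), with an edgeR quasi-likelihood adjusted p of 0.0685. Without wild-type replicate 2 it was 1.87 (SE 0.34, adjusted p = 0.0324). The adjusted p ranged from 1.646e-05 with edgeR's exact test to 0.373 without Ptpn6+/mev replicate 3 over the 14 alternatives that tested the gene, with a positive log2 fold change in each. The log2 fold change over these alternatives was 1.02 to 2.11, the lowest with limma on log2(FPKM + 1), a scale that understates the change of low genes.

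Mmp3 (stromelysin-1, ENSMUSG00000043613, chr9:7445822-7455975, plus strand), the other stromelysin of the cluster, measured 3.29, 4.70 and 3.55 FPKM in Ptpn6+/mev kidneys and 3.90, 0.71 and 4.52 FPKM in wild-type kidneys. Apart from the single low wild-type library, all values lay between 3.29 and 4.70 FPKM. Fitted on the log2 scale, the fold change was 0.28 (SE 0.52, edgeR adjusted p = 0.890) and -0.16 without wild-type replicate 2. In the mean of the wild-type kidneys Mmp3 was at 3.04 ± 2.04 FPKM and Mmp10 at 0.47 ± 0.0954 FPKM (SD, n = 3), whereas the means in Ptpn6+/mev kidneys were 3.85 ± 0.750 and 1.97 ± 0.197 FPKM. All counts of both genes were whole numbers in the table, where 1744 genes had a fractional count in at least 1 library.

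Mmp7 (matrilysin, ENSMUSG00000018623, chr9:7692090-7699585, plus strand), a small MMP without the hemopexin domain that is made by epithelial cells, measured 2.45, 3.33 and 3.90 FPKM in Ptpn6+/mev kidneys. In wild-type kidneys it measured 6.66, 9.44 and 2.94 FPKM, so 2 wild-type libraries were above all Ptpn6+/mev libraries and the other was within their range. Its log2 fold change was -1.05 (SE 0.44, edgeR adjusted p = 0.377), the opposite sign to Mmp10, and -0.59 without wild-type replicate 2, where its level was highest. Leaving out each library in turn gave -1.41 to -0.59. On the annotation 123 bases, or 11.5% of the exon bases of Mmp7, are shared with the antisense gene AV064505, and the library kit did not mark strand, so reads of both genes there cannot be told apart.

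Mmp13 (collagenase-3, ENSMUSG00000050578, chr9:7272514-7283331, plus strand), which cleaves fibrillar collagen, was near the limit of detection. It had 3, 3 and 9 counts in Ptpn6+/mev and 6, 4 and 3 counts in wild-type libraries, or 0.11, 0.11 and 0.31 against 0.21, 0.14 and 0.09 FPKM. It was below the count filter and so was not tested in the main fit. A fit without the filter gave a log2 fold change of 0.23 (SE 0.68). Mmp14 (MT1-MMP, ENSMUSG00000000957, chr14:54431612-54445364, plus strand), the membrane-anchored collagenase that activates pro-MMP-2, measured 13.89, 18.57 and 17.47 FPKM in Ptpn6+/mev kidneys and 17.73, 8.38 and 19.77 FPKM in wild-type kidneys. All libraries but wild-type replicate 2 lay between 13.89 and 19.77 FPKM. The log2 fold change of Mmp14 was 0.02 (SE 0.26, edgeR adjusted p = 0.990) and -0.25 (SE 0.12, adjusted p = 0.323) without that library.

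Among the inhibitors, Timp3 had the narrowest relative spread in wild-type kidneys (coefficient of variation 12.3%) and was the gene whose groups nearly separated. Timp3 (ENSMUSG00000020044, chr10:86300372-86349506, plus strand), which binds to the extracellular matrix and also inhibits ADAM proteases such as ADAM17, measured 124.58, 153.23 and 114.70 FPKM in Ptpn6+/mev kidneys. It measured 174.76, 193.78 and 151.26 FPKM in wild-type kidneys, so in FPKM the groups overlapped by 1 pair of libraries, Ptpn6+/mev replicate 2 and wild-type replicate 3. In counts scaled to library size with TMM factors (CPM) they just failed to overlap, at 528.8 to 711.8 in Ptpn6+/mev and 712 to 982.5 in wild-type kidneys. Means were 130.8 ± 20.01 and 173.3 ± 21.3 FPKM (SD, n = 3), on 5848 to 10008 counts per library. The log2 fold change was -0.47 (SE 0.15, edgeR adjusted p = 0.249), and it was -0.34 (SE 0.12, adjusted p = 0.192) without wild-type replicate 2. Timp3 shares 1733 of its exon bases, or 21.3%, with Syn3 on the opposite strand, and Syn3 itself had at most 0.98 FPKM.

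Timp1 (ENSMUSG00000001131, chrX:20870166-20874735, plus strand), the secreted inhibitor that is strongly induced by injury and cytokines, was the most scattered TIMP. It measured 41.16, 104.27 and 76.54 FPKM in Ptpn6+/mev kidneys and 85.39, 25.31 and 87.88 FPKM in wild-type kidneys, and the groups overlapped over most of their range. For Timp1 the log2 fold change was 0.11 (SE 0.45, edgeR adjusted p = 0.956) and -0.26 without wild-type replicate 2. Timp2 (ENSMUSG00000017466, chr11:118301069-118355740, minus strand), the constitutive inhibitor that bridges pro-MMP-2 to MMP-14, measured 21.11, 21.62 and 25.34 FPKM against 27.43, 13.60 and 23.80 FPKM. Its Ptpn6+/mev values lay inside the wild-type range. Timp2 had a log2 fold change of 0.10 (SE 0.21, edgeR adjusted p = 0.905) and -0.12 without wild-type replicate 2. In total, 5 of the 10 members changed the sign of their fold change without that library, and its low stromal and endothelial marker sums moved with these values. In FPKM, Aqp2 and Calb1 of the 5 distal nephron markers were highest in the same library, as Mmp7 and Timp3 were. Umod, Slc12a1 and Slc12a3 were not, although Umod had its highest estimated count there, at 47351 against 29307 to 45803 in the others. The part of these markers in the values was not tested.

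The Mmp cluster spans 427 kb of chromosome 9, at chr9:7272514-7699585, and its 10 genes were read in order as Mmp13, Mmp12, Mmp1b, Mmp3, Mmp1a, Mmp10, Mmp8, Mmp27, Mmp20 and Mmp7. Mmp1a, Mmp1b and Mmp20 had 0 counts in every library. Of the remaining genes that are not members, Mmp12, the macrophage elastase, had 29, 20 and 14 counts in Ptpn6+/mev and 27, 9 and 32 counts in wild-type libraries. Mmp8, the neutrophil collagenase, had 6, 10 and 14 against 3, 10 and 3 counts. Both overlapped between groups. Mmp27, whose start lies 69.0 kb from that of Mmp10, had 10, 8 and 7 counts against 2, 1 and 4 counts, so its groups did not overlap and it was singled out after its values were seen. Mmp27 was below the count filter, and the fit without a filter gave a log2 fold change of 1.85 (SE 0.62, edgeR adjusted p = 0.306). Mmp3, whose start lies 56.5 kb away on the other side of Mmp10, had groups that overlapped and a fitted change whose sign turned without wild-type replicate 2, and Mmp7 had a negative log2 fold change.

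**Figure D3:**
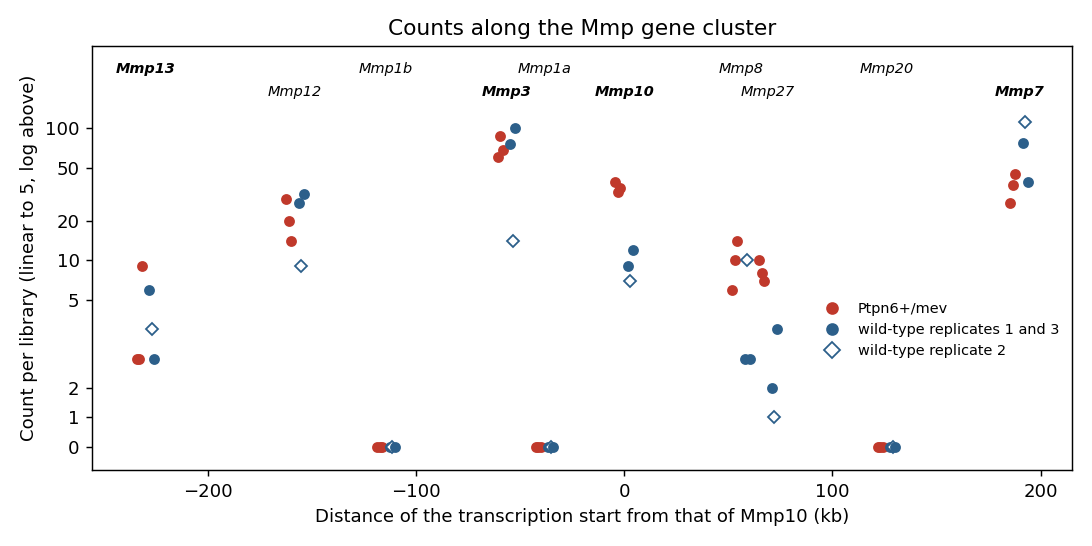
Counts of the 10 genes of the Mmp cluster in each library (axis linear to 5 and logarithmic above), placed by the distance of each transcription start from that of Mmp10 in kb, with members in bold. Mmp10 and Mmp27 have all Ptpn6+/mev points above all wild-type points, and Mmp1a, Mmp1b and Mmp20 lie at 0.

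Of the other 18 genes of the family, 8 had enough counts to be tested, 4 were at 0 in every library (Mmp1a, Mmp1b, Mmp20 and Mmp21), and 0 passed the FDR threshold with DESeq2, limma or either edgeR test. Their median log2 fold change was 0.06, against -0.002 over all genes tested and 0.10 over the 9 tested members. Without wild-type replicate 2 these medians were -0.24, 0.009 and -0.25, respectively. Mmp15, the membrane-type MT2-MMP, was the only one of the 8 tested at an unadjusted p under 0.05. It measured 1.87, 1.52 and 2.22 FPKM in Ptpn6+/mev and 0.92, 0.69 and 1.43 FPKM in wild-type kidneys without overlap, with a log2 fold change of 0.82 (SE 0.28, edgeR adjusted p = 0.286). Mmp23, the most abundant of these genes, measured 3.45, 3.56 and 3.75 against 4.70, 2.22 and 3.49 FPKM, with a log2 fold change of -0.01.

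Genes of the surrounding protease system were grouped by role. For all genes tested, the share at an unadjusted p under 0.05 was 12.2%. The share called was 2.99% with the exact test, 2.98% with DESeq2 and 1.77% with quasi-likelihood testing without wild-type replicate 2. The plasminogen activator system generates plasmin, which can activate proMMPs. Of its 9 listed genes 7 were tested and 0 passed in the quasi-likelihood or limma tests, while 2 higher and 1 lower were listed at an unadjusted p under 0.05. DESeq2, the exact test and, with wild-type replicate 2 left out, quasi-likelihood testing each called 1 higher gene, Plat, and 1 lower gene, Serpinf2. Plat, tissue plasminogen activator, measured 162.61, 157.73 and 159.37 FPKM in Ptpn6+/mev and 80.88, 85.93 and 113.63 FPKM in wild-type kidneys, 2 groups that did not overlap. Its log2 fold change was 0.71 (SE 0.12, edgeR adjusted p = 0.0786), and the adjusted p was 0.0324 without wild-type replicate 2. Plau, the urokinase-type activator and the most abundant gene of the list, was at 234.5 ± 55.0 against 231.6 ± 30.4 FPKM (SD, n = 3). Serpinf2, alpha-2-antiplasmin, had a log2 fold change of -1.22 (SE 0.28, edgeR adjusted p = 0.134). Plasminogen itself, Plg, was listed at 0 in every library.

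The ADAM and ADAMTS families, metalloproteinases that are in part inhibited by TIMP-3, had 18 of 21 genes tested and 0 passing by any of the 4 tools, with 2 higher and 1 lower at an unadjusted p under 0.05. Adam8, an ADAM of leukocytes, measured 13.31, 15.65 and 19.38 FPKM against 10.54, 4.15 and 11.11 FPKM, with a log2 fold change of 0.85 (SE 0.31, edgeR adjusted p = 0.320). Adamts1, the most abundant of the list, had a log2 fold change of -0.16. Of 16 activators and binding partners of MMPs, 13 were tested and 0 passed in the quasi-likelihood or limma tests, and 2 lower genes were listed at an unadjusted p under 0.05. Pcsk5, a proprotein convertase, measured 2.38, 2.98 and 2.91 FPKM against 4.00, 3.50 and 4.63 FPKM without overlap. Its log2 fold change was -0.62 (SE 0.14, edgeR adjusted p = 0.134), and it was called by the exact test and DESeq2, the latter together with Mep1a, a meprin subunit. With wild-type replicate 2 left out, the quasi-likelihood adjusted p of Pcsk5 was 0.0431. Lcn2, which binds MMP-9 and is known as a marker of tubular injury, was the most abundant of the list at 1130 to 2269 FPKM in Ptpn6+/mev and 962 to 2080 FPKM in wild-type kidneys.

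Of 23 matrix substrates 22 were tested and 0 passed in the quasi-likelihood or limma tests, with 1 higher and 2 lower at an unadjusted p under 0.05. Eln, which encodes elastin, measured 18.68, 12.58 and 14.73 FPKM in Ptpn6+/mev and 6.72, 3.37 and 7.26 FPKM in wild-type kidneys without overlap. Its log2 fold change was 1.35 (SE 0.26, edgeR adjusted p = 0.0943), it was called by the exact test and DESeq2, and without wild-type replicate 2 it was 1.11 (adjusted p = 0.0193). Without that library Dcn, a small proteoglycan gene of fibroblasts, was also called, at a log2 fold change of -0.78 (adjusted p = 0.0392). With all libraries Dcn was at -0.36 (edgeR adjusted p = 0.826). Of the 7 fibroblast markers, which include Dcn, Pdgfra was also called without that library, at -0.54 (edgeR adjusted p = 0.0496). The median of these 7 was -0.03 with all libraries and -0.41 without wild-type replicate 2. Spp1, or osteopontin, a matrix phosphoprotein cleaved by MMP-3 and MMP-7, was the most abundant substrate, with a log2 fold change of -0.38 (edgeR adjusted p = 0.331). All 13 listed AP-1 and ETS factor genes were tested, and 0 passed by any of the 4 tools or at an unadjusted p under 0.05. Their median log2 fold change was 0.09, and Jund, with the smallest p, was at 0.20 (SE 0.09, edgeR adjusted p = 0.434). Junb, the most abundant, was at -0.18 (edgeR adjusted p = 0.775). Without wild-type replicate 2 the medians became -0.11 for ADAM and ADAMTS genes, -0.19 for matrix substrates, 0.03 for activators and partners, 0.10 for the plasminogen activator system and 0.0003 for AP-1 and ETS factors, so the sign turned for the first 3 of these lists.

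**Figure D4:**
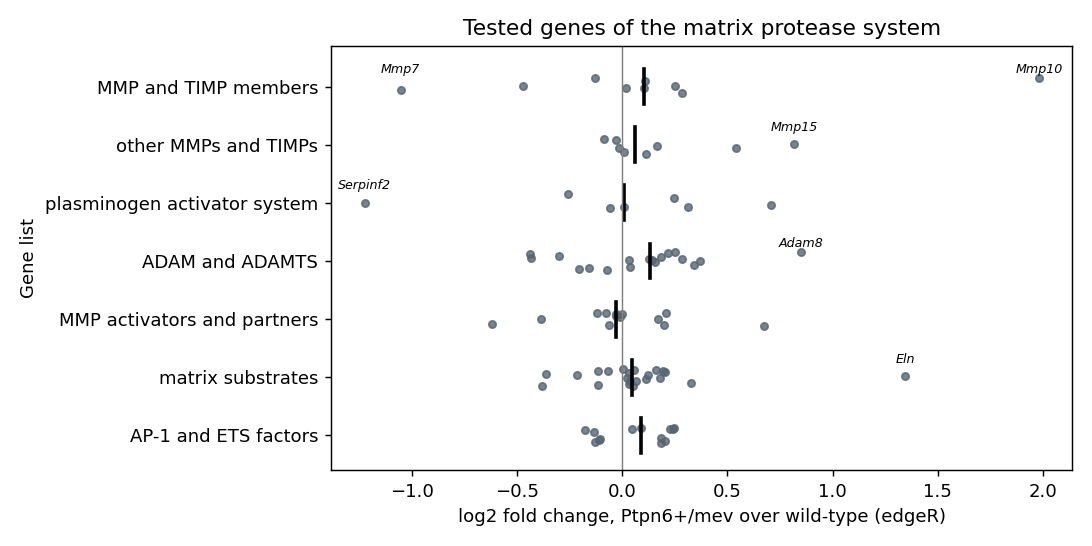
Log2 fold change, Ptpn6+/mev over wild-type (edgeR), of each tested gene of the members and of 6 lists of the protease system, with points for genes and a bar at the median of each list. With all 6 libraries, list medians lie between -0.03 and 0.13, and Mmp10 at 1.98, Eln at 1.35, Serpinf2 at -1.22 and Mmp7 at -1.05 lie farthest from 0.

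The genes whose levels followed those of Mmp10 most closely over the 6 libraries, by Pearson's r of log2 CPM (counts scaled to library size) among 11844 genes, were Anxa3, Bub1b, Asna1, Oser1 and Cldn1, with r of 0.993, 0.993, 0.992, 0.991 and 0.991. Cldn1, the tight junction protein claudin-1, measured 41.12, 39.73 and 37.56 FPKM in Ptpn6+/mev and 17.67, 16.69 and 18.25 FPKM in wild-type kidneys. Its log2 fold change was 1.10 (edgeR adjusted p = 0.00439), and that of Anxa3, an annexin, was 0.71 (adjusted p = 0.0386). The genes closest to Timp3 were Hsd17b7, Uqcrc1, Them6, Map3k15 and Ghr, with r of 0.996 to 0.986. Ghr, the growth hormone receptor, measured 61.18, 77.21 and 59.50 FPKM against 85.05, 95.60 and 75.04 FPKM, overlapping by 1 pair of libraries as Timp3 did. With 6 libraries that share a split by genotype and many candidate genes, such values are high by selection, and they are given as a description.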

How the data were processed

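Left kidney RNA was sequenced as poly-A libraries with a kit that does not mark strand, 1 library per mouse, 3 per genotype. Per the submitters' processing notes and the study's methods, the authors aligned reads to GRCm38.p5 with TopHat2 (2.0.3.12 in the notes, another version in the methods) and Bowtie2. The table holds FPKM values, which the authors computed with Cufflinks, and estimated counts, deposited beside them and partly fractional. RSEM is also listed, and which tool gave the counts is not given in the sources used here. The members and gene lists were chosen with earlier results of these data known. Estimated counts were rounded, filtered with filterByExpr and tested in edgeR 4.0.16 (R 4.3.3) by the quasi-likelihood test with TMM factors over 13036 genes, with Benjamini-Hochberg adjustment at an FDR of 0.05. The script was tested on simulated data. Alternatives were edgeR's exact test, DESeq2 1.42.0, limma 3.58.1 on log2(FPKM + 1) and log2(FPKM + 0.1), other normalizations and filters, a replicate block and leaving out each library. Levels were compared in FPKM without a test. Depth limits the precision for genes of few counts, such as Mmp13. No listed gene was called by the quasi-likelihood test with all libraries, so from each protease list the gene with the smallest p and the most abundant gene were named. Marker lists were used as sums and, for tubule and fibroblast markers, as counts of genes called, with medians for distal nephron and fibroblast markers. Mmp27, Serpinf2, Mep1a, Dcn and the single marker genes named were chosen after their values were seen. For the tested member with the largest fold change and the most abundant member, the 5 genes with the highest Pearson's r of log2 CPM (prior count 2, mean FPKM of at least 1) were named. Gene positions came from GENCODE M21 on GRCm38 and promoters from RefSeq on GRCm38.p6.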

Additional observations from a re-analysis of the deposited data

How the results depend on the processing

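With edgeR's quasi-likelihood test 18 genes passed the FDR threshold. The exact test called 390, DESeq2 388 and the quasi-likelihood test without a count filter 52 genes, and leaving out 1 library gave 1 to 231 (4 without Ptpn6+/mev replicate 1, 1 without Ptpn6+/mev replicate 3, 9 without wild-type replicate 1, 231 without wild-type replicate 2 and 65 without wild-type replicate 3). The labels do not say whether equal replicate numbers mark pairs. Deviations from the group means correlated at -0.144, -0.184 and -0.13 between equal numbers. With 3 libraries per group and wild-type replicate 2 apart from the others, these values cannot show whether samples were paired. A replicate block left 1 gene called. Members called rose from 0 to 1, Mmp10, with the exact test, DESeq2, limma on log2(FPKM + 1) and on log2(FPKM + 0.1), and without wild-type replicate 2. The log2 fold change of Mmp9 reversed to 0.028 and 0.13 with these limma settings. Leaving out each library in turn gave -0.14 to 0.66 for Mmp2, -0.70 to 0.45 for Mmp9, -0.16 to 0.67 for Mmp3, -0.25 to 0.23 for Mmp14, -0.26 to 0.40 for Timp1 and -0.12 to 0.28 for Timp2, so these directions depend on single libraries. Mmp7 and Timp3 kept their direction in all 15 alternatives and Mmp10 in the 14 that tested it. A minimum of 10 counts in every library removed Mmp10. The MMP to TIMP ratio of the members became 0.332 in Ptpn6+/mev and 0.379 in wild-type kidneys without Timp3, so the order of the groups turned. Without Mmp14 it was 0.0615 in Ptpn6+/mev and 0.0551 in wild-type kidneys. The cause was not tested for these changes, other than the fewer genes or samples in a fit.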

Other observations

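Marker genes of kidney epithelium were read beside the members. Over all genes tested, 12.2% were listed at an unadjusted p under 0.05. The exact test called 2.99% and DESeq2 2.98%, and the quasi-likelihood test called 1.77% without wild-type replicate 2. Of the injury markers, Lcn2 and Spp1 also belong to the lists of activators and substrates above. Of 6 proximal tubule markers, 0 passed the FDR threshold in edgeR's quasi-likelihood test or limma, 3 were lower at an unadjusted p under 0.05, and the exact test and DESeq2 called 2 lower, Slc22a6 and Cubn. Their summed level was 444.1 to 550.1 FPKM in Ptpn6+/mev and 586.3 to 710.2 FPKM in wild-type kidneys. Slc22a6, an organic anion transporter, measured 71.38, 99.00 and 70.35 FPKM against 180.04, 182.51 and 130.42 FPKM, with a log2 fold change of -1.11 (SE 0.19, edgeR adjusted p = 0.0774) and an adjusted p of 0.0288 without wild-type replicate 2. Of 5 distal nephron markers, 0 passed by any of the 4 tools, and 1 was lower at an unadjusted p under 0.05. This was Slc12a3, at a log2 fold change of -0.43 (SE 0.13, edgeR adjusted p = 0.234). The median of these 5 was -0.43 with all libraries and 0.22 without wild-type replicate 2. Of 8 tubular injury markers, 0 passed in the quasi-likelihood test or limma, with 4 higher and 1 lower, Spp1, at an unadjusted p under 0.05. The exact test called 1 higher, Vcam1, and DESeq2 called 2 higher, Vcam1 and Krt18. With wild-type replicate 2 left out, quasi-likelihood testing called 2 higher, the keratin genes Krt18 and Krt20, among these markers and 3 lower, Lrp2, Slc22a6 and Cubn, among the proximal tubule markers. Krt20 had a log2 fold change of 0.65 without that library and 0.16 (edgeR adjusted p = 0.892) with all libraries. Vcam1, an adhesion molecule of injured tubule and endothelium with the smallest p among them, measured 13.31, 24.00 and 22.77 FPKM against 11.69, 5.91 and 11.44 FPKM, with a log2 fold change of 1.05 (SE 0.28, edgeR adjusted p = 0.188). The part of these differences in the Mmp10, Mmp7 and Timp3 values was not tested.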
